A study of Mus musculus with 8 samples.

Results

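Messenger RNA of 10 genes that control mitochondrial fusion, fission and mitophagy was compared between muscle stem cells (MuSCs) of mice on a vitamin A-free (VA-free) and a control diet. The 10 genes were taken by name from the Ensembl 96 annotation, for their known roles but with earlier results of these data known. They were Mfn1, Mfn2 and Opa1 for fusion, Dnm1l, Fis1 and Mff for fission, and Pink1, Bnip3, Bnip3l and Fundc1 for mitophagy. All 10 were among the 17997 genes with enough counts to be tested. RNA came from male Pax7-nTnG mice, 5 to 6 months old, in which a tamoxifen-inducible Cre driven by Pax7 (Pax7-CreERT2) switches a nuclear reporter at Rosa26 to GFP. Mice of both diets carried these alleles and received tamoxifen. GFP-positive MuSCs were sorted from gastrocnemius and quadriceps muscles of 3 mice fed the VA-free diet for 8 weeks and of 2 mice kept on control chow. The RNA of a mouse had been divided into technical replicates A and B, and 8 libraries were analysed. VA-free libraries were 1B, 2A, 3A and 3B, and control libraries 1A, 1B, 2A and 2B. Libraries of a mouse were added for every test, so n was 3 and 2 mice, and the spread on the control diet rested on a single difference between animals.

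Mitochondria join and divide continually. The outer membranes are fused by the mitofusins Mfn1 and Mfn2 and the inner membranes by Opa1, whereas the dynamin-related GTPase Dnm1l (Drp1) is brought to the surface by adaptors such as Mff and Fis1 and constricts the organelle until it divides. Damaged mitochondria are removed by mitophagy, either after the kinase Pink1 accumulates on them and marks them with phosphorylated ubiquitin, or through outer membrane receptors such as Bnip3, Bnip3l (Nix) and Fundc1 that bind the autophagosome directly. In quiescent MuSCs both processes are known to help keep the small mitochondrial pool in order.

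On the VA-free diet 4 of the 10 genes were higher and 5 lower past an adjusted p of 0.05, and Dnm1l did not pass. All 3 fusion genes and Pink1 rose, while Fis1, Mff and the 3 mitophagy receptors fell. Once a trend with transcript length was removed, only Bnip3 of these genes kept its call, and Mff turned to 0.05. Among all genes tested, 18.9% were called higher and 22.5% lower, so that 41.4% passed in either direction. The median log2 fold change was -0.33 over the 10 genes and 0.00 over all genes tested. Levels were CPM, the counts scaled by library size, after TMM normalization, a scaling of library sizes that evens out a few very abundant genes, and each log2 fold change sets the VA-free diet over control, with its standard error (SE) from the F statistic. With log2(TPM + 1), a level scaled by transcript length, 4 of the 10 genes were higher and 3 lower. Of all 17997 genes, 5794 were then higher and 2631 lower, and the median of all genes moved to 0.19.

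**Figure D1:**
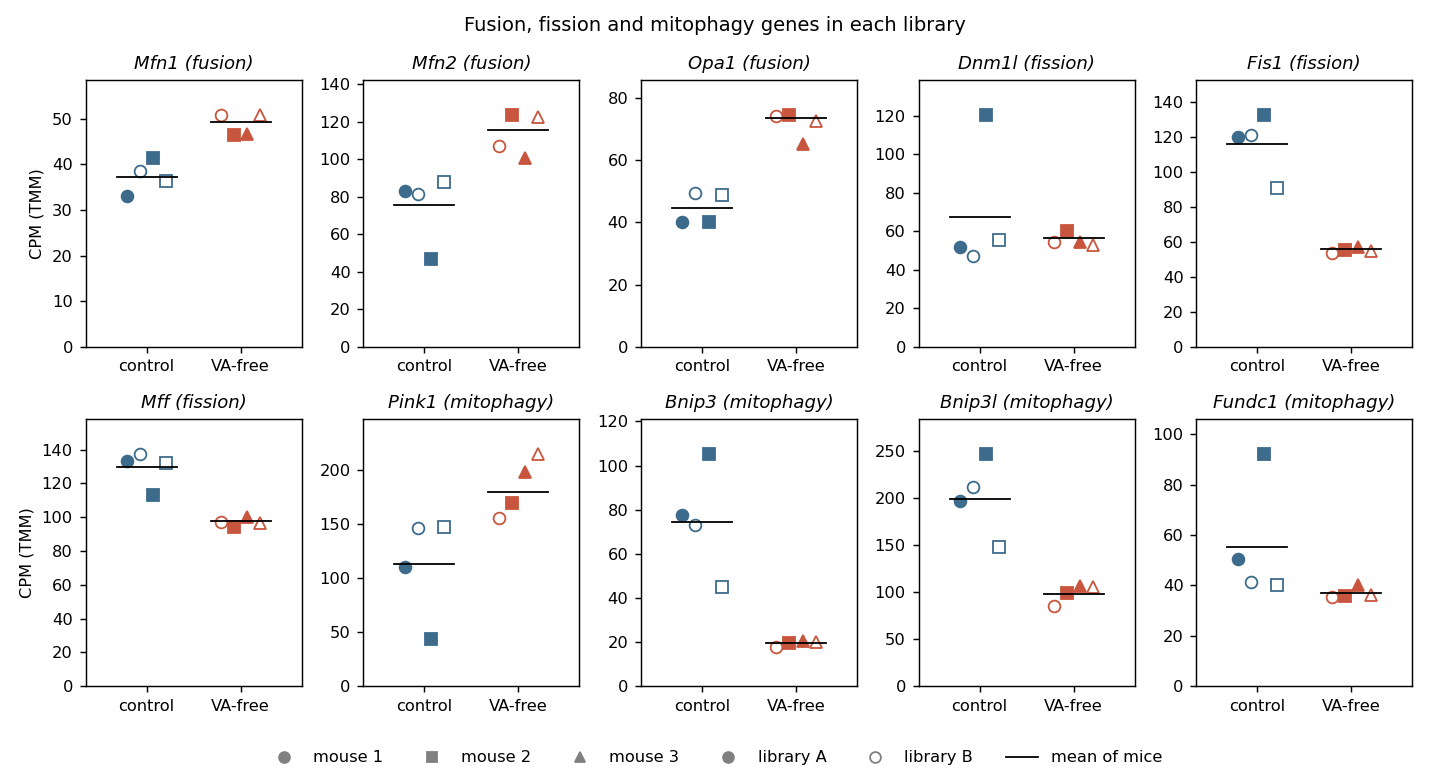
CPM after TMM normalization (y axis, from 0) of the 10 genes in each library on the control and VA-free diets. Shapes mark the mouse, filled symbols technical replicate A, open symbols B and lines the mean of the mice of a diet. The VA-free libraries lie apart from every control library for 8 of the 10 genes, as for 41.3% of all genes tested in either direction. Control 2A is the filled square that stands away from the other controls for Mfn2, Dnm1l, Pink1 and Fundc1.

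Several features of these libraries move with the diets, and values that bear on the 10 genes are given here once. Markers of several other cell types were higher in the control libraries. The summed level of 8 endothelial markers was 223 to 286 CPM in VA-free and 943 to 2323 CPM in control libraries, and all 8 were called lower. All 7 Schwann cell markers (57.6 to 79.1 against 300 to 764 CPM) and all 6 tenocyte markers (24.3 to 53.8 against 661 to 1181 CPM) were lower too. Of 12 MuSC markers, Pax7 among them, 11 were higher, and their sum was 7393 to 8103 CPM on the VA-free and 2640 to 4690 CPM on the control diet, so the labelled cell type was present in each library. In such bulk RNA, fewer cells of a type and less RNA per cell cannot be told apart. Of 7 fibro-adipogenic progenitor markers 1 was higher and 3 lower (sums of 16770 to 19060 against 8387 to 14700 CPM, mostly Col3a1 and Gsn), of 7 pericyte and smooth muscle markers 1 was higher and 4 lower (1532 to 1813 against 2511 to 3007 CPM), and of 7 macrophage markers 3 were lower (22.1 to 116 against 164 to 825 CPM). Of 8 myofiber markers 3 were lower (321 to 414 against 408 to 506 CPM) and of 4 erythroid markers 3 (16.5 to 128 against 479 to 1003 CPM). No listed marker was at 0 in every VA-free library. Their part in the differences of the 10 genes was not tested.

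The technical replicates of control mouse 2 were unlike each other for these genes. The log2 ratio of A to B had a median size of 0.09 over the 10 genes in VA-free mouse 3 and of 0.12 in control mouse 1, but of 0.82 in control mouse 2, where it reached 1.76 for Pink1. Without control library 2A, 3 of the 10 genes were higher and 4 lower. Pink1 (0.36, adjusted p = 0.0849, edgeR) and Fundc1 (-0.26, adjusted p = 0.146, edgeR) no longer passed.

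The direction of change also followed transcript length across the transcriptome. When genes were put in 10 bins of equal number by length, those with the shortest transcripts (up to 824 bases) had a median log2 fold change of -0.69 and those with the longest (from 4532 bases) of 0.60. Among the 10 genes, Mfn1, Opa1 and Mfn2 had mean transcript lengths, weighted by abundance, of 2462, 3918 and 4068 bases, and Bnip3l, Fis1, Mff and Fundc1 of 714, 795, 1226 and 1348 bases. Dnm1l, which did not pass, had 3339 bases. The genes that rose were thus of at least 2185 bases (Pink1) and the genes that fell of at most 1585 bases (Bnip3). When the trend with length was taken out of each mouse's counts, none of the 10 genes was called higher and 2 were called lower, Bnip3 (-1.74, adjusted p = 0.000377, edgeR) and Dnm1l (-0.67, adjusted p = 0.0491, edgeR).

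**Figure D2:**
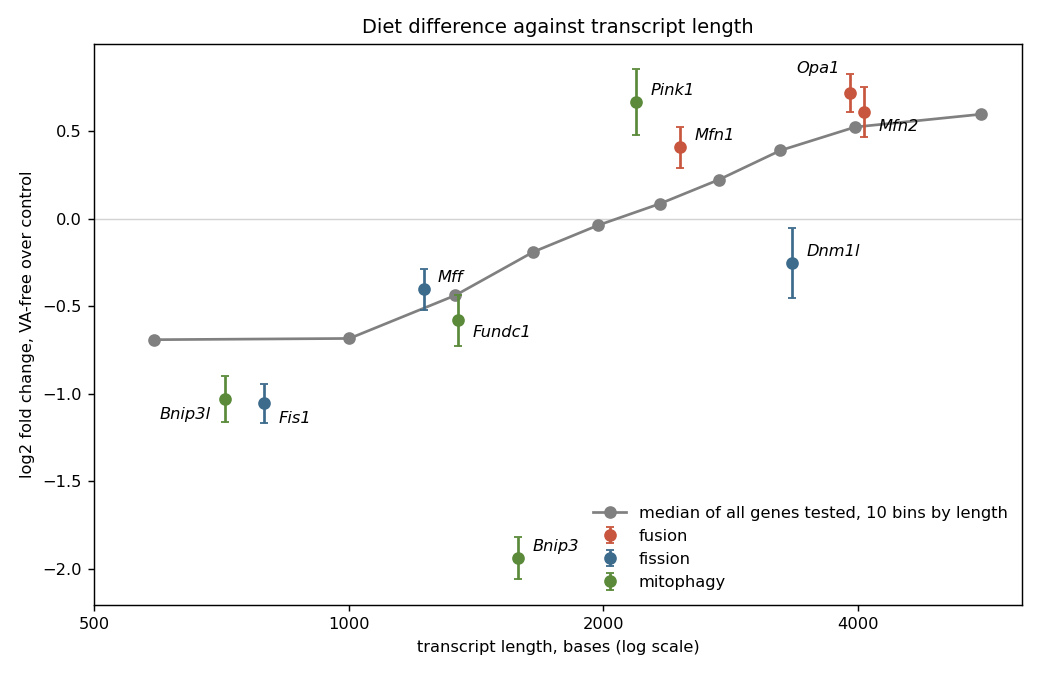
Log2 fold change (VA-free over control, y axis) against mean transcript length in bases (x axis, log scale). Coloured points are the 10 genes with their standard errors and grey points the medians of all genes tested in 10 bins by length, which run from -0.69 to 0.60. Bnip3 lies farthest below its bin, which has a median of -0.19, whereas Mff and Mfn2 lie near theirs.

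All 3 fusion genes were higher on the VA-free diet. Opa1 (chromosome 16, 29579334 to 29654884, plus strand, GRCm38) remodels the inner membrane and its cristae. Its level was 74.1 CPM in VA-free 1B, 74.6 in 2A, 65.1 in 3A and 72.6 in 3B, and 40.2 CPM in control 1A, 49.4 in 1B, 40.1 in 2A and 48.8 in control 2B. Every VA-free library lay above every control library, as for 41.3% of all genes tested in either direction. Means were 73.5 ± 3.17 CPM (SD, n = 3 mice) against 44.6 ± 1.98 (SD, n = 2 mice), for a log2 fold change of 0.72 ± 0.11 (SE). The adjusted p was 0.00250 by the quasi-likelihood test of edgeR, adjusted over all genes by Benjamini and Hochberg. The call held with any 1 mouse or library left out, and was lost only when the length trend was removed (0.20, adjusted p = 0.199, edgeR, the highest of the 25 alternatives). Opa1 lay 0.19 above the median of genes of its length on the log2 scale.

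Mfn2 (chromosome 4, 147873599 to 147904704, minus strand) also tethers mitochondria to the endoplasmic reticulum. It was at 107 CPM in VA-free 1B, 124 in 2A, 101 in 3A and 123 in 3B, and at 83.1 CPM in control 1A, 81.3 in 1B, 47.1 in 2A and 88.0 in control 2B. The diets did not overlap, and control 2A was the lowest library by a wide margin. The mean was 116 ± 7.43 CPM (SD, n = 3) against 75.8 ± 13.2 CPM (SD, n = 2), with a log2 fold change of 0.61 ± 0.14 (SE, adjusted p = 0.0133, edgeR). Without control 2B the log2 fold change was 0.79 and the call was lost (adjusted p = 0.0896, edgeR), and with the length trend removed it was 0.08 (adjusted p = 0.727, edgeR).

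Mfn1 (chromosome 3, 32529465 to 32579239, plus strand), the mitofusin with the stronger tethering activity, rose too. Its level was 50.9 CPM in VA-free 1B, 46.5 in 2A, 46.6 in 3A and 50.8 in 3B, and 33.2 CPM in control 1A, 38.5 in 1B, 41.5 in 2A and 36.5 in control 2B. The gap between the diets, from 41.5 to 46.5 CPM, was narrow but not crossed. Means of 49.4 ± 2.76 CPM (SD, n = 3) against 37.2 ± 0.461 (SD, n = 2) gave a log2 fold change of 0.41 ± 0.11 (SE, adjusted p = 0.0274, edgeR). This call was lost under 10 of 25 alternatives, with adjusted p of up to 0.217 (edgeR). Among them were the fits without VA-free mouse 1 (0.37), 2 (0.45) or 3 (0.40), without control 1A (0.36) and without control 2B (0.31).

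Of the fission genes, Fis1 and Mff fell and the GTPase itself did not pass. Fis1 (chromosome 5, 136953275 to 136966234, plus strand) is a small tail-anchored protein of the outer membrane. It was measured at 53.9 CPM in VA-free 1B, 55.4 in 2A, 57.4 in 3A and 54.9 in 3B, and at 120 CPM in control 1A, 121 in 1B, 133 in 2A and 90.8 in control 2B. The VA-free libraries were close together and well below the lowest control. With means of 55.8 ± 0.901 CPM (SD, n = 3) against 116 ± 12.7 (SD, n = 2), Fis1 was 2.08-fold lower (log2 fold change -1.05 ± 0.11, SE, adjusted p = 0.000656, edgeR). Fis1 passed in 24 of 25 alternatives. With the length trend removed it was at -0.33 (adjusted p = 0.0560, edgeR), and the median of genes of its length was -0.69.

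Mff (chromosome 1, 82724890 to 82752394, plus strand), the main Drp1 receptor, was at 97.3 CPM in VA-free 1B, 94.3 in 2A, 100 in 3A and 96.6 in 3B. Control libraries had 134 CPM for 1A, 138 for 1B, 113 for 2A and 132 for 2B, all above the VA-free libraries. The mean was 97.8 ± 2.92 CPM (SD, n = 3) against 130 ± 14.9 (SD, n = 2), for a log2 fold change of -0.40 ± 0.12 (SE, adjusted p = 0.0295, edgeR). The call was lost without VA-free mouse 1 (-0.41), 2 (-0.38) or 3 (-0.42), without control mouse 1 (-0.28) and without control 2B (-0.39), with adjusted p from 0.0737 to 0.132 (edgeR). After removal of the length trend Mff was at 0.05 (adjusted p = 0.802, edgeR, the highest of its alternatives), and with log2(TPM + 1) at -0.07. Of its exons 195 bases also belong to C430014B12Rik on the other strand, and since the library kit does not mark strand, reads of the 2 genes cannot be told apart there.

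Dnm1l (chromosome 16, 16312230 to 16358959, minus strand) was at 54.4 CPM in VA-free 1B, 60.1 in 2A, 54.5 in 3A and 53.0 in 3B, and at 52.0 CPM in control 1A, 47.4 in 1B, 121 in 2A and 55.6 in control 2B. Apart from control 2A, the libraries of both diets lay between 47.4 and 60.1 CPM and overlapped. Means were 56.8 ± 3.08 CPM (SD, n = 3) against 67.5 ± 22.5 (SD, n = 2), and the log2 fold change was -0.25 ± 0.20 (SE, adjusted p = 0.364, edgeR). It was 0.08 without control 2A and 0.13 without control mouse 2, and without control mouse 1 it was -0.56 and passed (adjusted p = 0.00964, edgeR). The adjusted p ranged up to 0.604 over the 25 alternatives. Of its exons 243 bases also belong to the antisense gene Gm49521.

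Within libraries, the balance of these roles was described by summed TPM, a level that is scaled by length. The 3 fusion genes summed to 111 to 128 TPM on the VA-free and 49.4 to 73.8 TPM on the control diet, and the 3 fission genes to 307 to 334 and 374 to 420 TPM. The ratio of fusion to fission TPM was 0.343 to 0.414 in VA-free and 0.132 to 0.189 in control libraries. These ranges did not overlap, and as a score over chosen genes they are given without a test. Fis1 and Mff made up most of the fission sums, with Dnm1l at a median of 30.5 (VA-free) and 23.9 TPM (control). The length trend was not removed from these sums, and the fusion genes had longer transcripts than Fis1 and Mff. With it removed, log2 fold changes were 0.23 (Mfn1), 0.08 (Mfn2), 0.20 (Opa1), -0.33 (Fis1) and 0.05 (Mff), and none of these passed. Dnm1l was then at -0.67 and passed. The part of the length trend in the ratio was not tested.

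The mitophagy receptor Bnip3 showed the largest difference of the 10 genes. Bnip3 (chromosome 7, 138890836 to 138909519, minus strand) is induced by hypoxia and links mitochondria to LC3. The 250 bases before its RefSeq start (chr7:138909507-138909756, GRCm38.p6, minus strand) are shown with the palindrome CACGTG in capitals, since they hold both the core ACGTG of hypoxia response elements and an E-box.
Bnip3: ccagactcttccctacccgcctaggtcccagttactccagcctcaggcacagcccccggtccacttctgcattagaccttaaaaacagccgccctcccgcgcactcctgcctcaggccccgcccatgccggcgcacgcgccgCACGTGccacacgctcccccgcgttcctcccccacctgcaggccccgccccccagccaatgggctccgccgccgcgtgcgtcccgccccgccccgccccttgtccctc
For comparison, the same stretch before Opa1 (chr16:29579084-29579333, plus strand), a fusion gene that rose, has an overlapping pair of matches to GCATGCGC, a core bound by NRF1 in genes for mitochondrial proteins, in capitals.
Opa1: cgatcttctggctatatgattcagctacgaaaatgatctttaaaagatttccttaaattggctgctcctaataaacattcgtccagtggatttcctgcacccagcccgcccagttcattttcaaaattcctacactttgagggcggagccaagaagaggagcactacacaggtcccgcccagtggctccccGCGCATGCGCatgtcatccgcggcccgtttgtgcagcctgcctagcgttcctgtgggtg
Both strands of 32851 RefSeq windows of this length were searched, 14 of them of 9 of the 10 genes. The core ACGTG was in 16.6% of all windows and in those of Bnip3 and Mfn2, CACGTG in 6.02% and in that of Bnip3, and GCATGCGC in 2.26% and in that of Opa1, with no match in the windows of the other searched genes. The half-site AGGTCA, which retinoic acid receptors bind, was in 14.0% of all windows and in none of those of the 9 genes. Only the exact letters given were searched, so other forms of these sites are not counted. The matches are letters in these windows and no measurement of binding.

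Bnip3 was at 17.6 CPM in VA-free 1B, 19.7 in 2A, 20.4 in 3A and 20.1 in 3B. Control libraries had 77.7 CPM for 1A, 73.2 for 1B, 105 for 2A and 45.1 for 2B, and even the lowest of these was above every VA-free library. Means were 19.4 ± 1.26 CPM (SD, n = 3) against 74.6 ± 5.05 (SD, n = 2), so Bnip3 was 3.84-fold lower (log2 fold change -1.94 ± 0.12, SE, adjusted p = 0.000226, edgeR). The call held under all 25 alternatives, with log2 fold changes from -2.26 without control 2B to -1.33 with log2(TPM + 1) and an adjusted p of at most 0.00483 (edgeR). Bnip3 lay 1.75 below the median of genes of its length on the log2 scale. Control 2A, where Bnip3 was highest, had the lowest MuSC, endothelial, Schwann and tenocyte sums of the controls (2640, 943, 300 and 661 CPM) and the highest macrophage sum (825 CPM), and the part of other cells in the difference was not tested. Of its exons 504 bases also belong to the antisense gene Gm45507, and reads of both cannot be told apart without strand.

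Its paralog Bnip3l (chromosome 14, 66985239 to 67008877, minus strand), which clears mitochondria from maturing red cells, fell as well. Levels were 84.6 CPM in VA-free 1B, 98.6 in 2A, 106 in 3A and 105 in 3B, and 196 CPM in control 1A, 211 in 1B, 246 in 2A and 148 in control 2B. The diets did not overlap, and as for Bnip3 control 2A was highest and 2B lowest of the controls. Means of 97.5 ± 10.3 CPM (SD, n = 3) against 199 ± 15.7 (SD, n = 2) gave a log2 fold change of -1.03 ± 0.13 (SE, adjusted p = 0.00119, edgeR). Of the 4 erythroid markers 3 were lower too, as given above. Within the controls the order was the reverse of Bnip3l, with the lowest erythroid sum in 2A (479 CPM) and the highest in 2B (1003 CPM). The part of red cells in the Bnip3l difference was not tested. Between 68.1% and 77.1% of the Bnip3l counts lay on transcripts annotated as non-coding, mainly Bnip3l-204 of 354 bases and Bnip3l-205 of 789 bases. Counted on protein-coding transcripts alone, Bnip3l was at -0.75 and passed (adjusted p = 0.00802, edgeR). With the length trend removed it was at -0.31 (adjusted p = 0.122, edgeR, the highest of its alternatives), and this step used a mean length of 714 bases that the short transcripts set. The pseudogene Bnip3l-ps, which shares sequence with Bnip3l, had 0 to 80 counts in VA-free and 0 to 133 in control libraries.

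Fundc1 (chromosome X, 17556564 to 17572325, minus strand), a receptor whose binding to LC3 is set by phosphorylation, was at 35.3 CPM in VA-free 1B, 35.8 in 2A, 40.0 in 3A and 36.2 in 3B. It was at 50.5 CPM in control 1A, 41.2 in 1B, 92.3 in 2A and 40.0 in control 2B, so that the diets touched at 40.0 CPM and control 2A stood far above the rest. Means were 36.8 ± 1.46 CPM (SD, n = 3) against 55.1 ± 10.4 (SD, n = 2), and the log2 fold change was -0.58 ± 0.14 (SE, adjusted p = 0.0171, edgeR). It was -0.26 (adjusted p = 0.146, edgeR) without control 2A and -0.38 (adjusted p = 0.0417, edgeR) without control mouse 2. The call was also lost without control 1A (-0.51) or 2B (-0.95) and without VA-free mouse 1 (-0.57) or 2 (-0.56), and the adjusted p was at most 0.291 over the alternatives.

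**Figure D3:**
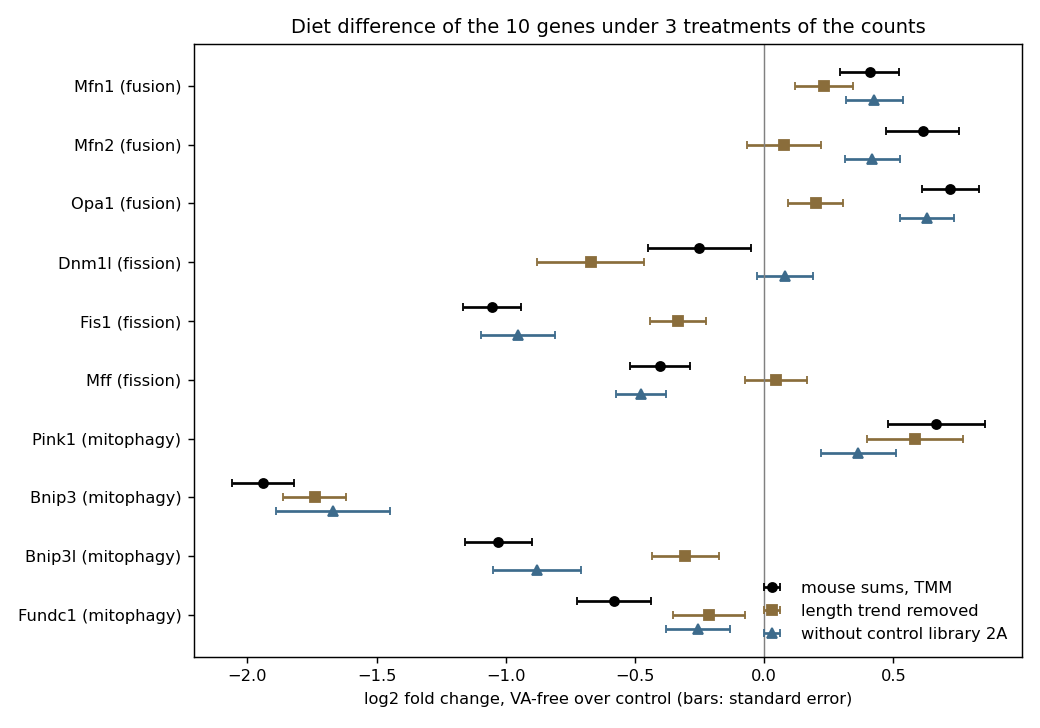
Log2 fold change (x axis, VA-free over control) with standard errors for the 10 genes (y axis) from the counts of mice, with the length trend removed, and without control library 2A. Bnip3 stays below -1.5 in all 3, Mff crosses from -0.40 to 0.05 when the length trend is removed, and Dnm1l lies on either side of 0.

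Pink1 was the mitophagy gene that rose. Pink1 (chromosome 4, 138313409 to 138326307, minus strand) is the kinase that marks depolarized mitochondria. It was at 156 CPM in VA-free 1B, 169 in 2A, 198 in 3A and 214 in 3B, and at 110 CPM in control 1A, 146 in 1B, 43.4 in 2A and 147 in control 2B. Every VA-free library was above every control library, but VA-free 1B and control 2B stood close, at 156 and 147 CPM, and control 2A was lowest. Means were 179 ± 26.4 CPM (SD, n = 3) against 113 ± 25.8 (SD, n = 2), for a log2 fold change of 0.67 ± 0.19 (SE, adjusted p = 0.0275, edgeR). The call was lost under 10 of 25 alternatives, with adjusted p of up to 0.164 (edgeR). Among them were the fits without control 1A (0.55), 2A (0.36) or 2B (1.02), without control mouse 2 (0.44) and without VA-free mouse 2 (0.71) or 3 (0.54). Once the length trend was removed it was at 0.58 (adjusted p = 0.0539, edgeR). Of its exons 110 and 69 bases are shared with the microRNA genes Gm27646 and Mir7019 on the same strand.

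Pink1 also differed in which transcripts were counted. Of 74 transcripts of the 10 genes, 62 were tested for a change in share within their gene, and 1, Pink1-203, passed (1.61%). Among all 58620 transcripts tested, 1.82% passed, so the share among the 10 genes was near the background. Pink1-203 and Pink1-201 both encode Pink1. The shorter Pink1-203 lacks 90 coding bases of the first exon, bases 41 to 130 of the coding sequence, 30 codons in all (chr4:138326090-138326179, GRCm38, minus strand), which are shown because they set the coding sequences apart.
Missing from Pink1-203: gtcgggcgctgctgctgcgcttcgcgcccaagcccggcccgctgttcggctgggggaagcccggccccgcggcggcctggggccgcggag
Another 574 bases of Pink1-201, outside this segment, are also absent from Pink1-203, and which of these differences the reads came from was not tested. Pink1-203 held 33.3% of the Pink1 TPM in VA-free 1B, 35.8% in 2A, 34.1% in 3A and 31.9% in 3B, and 0.244% in control 1A, 21.0% in 1B, 11.9% in 2A and 22.2% in control 2B. The VA-free libraries were alike, whereas the control libraries spread widely, with technical replicates 1A and 1B far apart (10 and 1033 estimated counts). Relative to the gene, the log2 change was 1.23 (adjusted p = 0.0166, edgeR's transcript-level F test). It failed under 10 of 14 alternatives, with adjusted p of up to 1 (edgeR). Without control 1A it was 0.78, without 1B 1.85, without 2A 1.05 and without 2B 1.62, and none of these passed. It also failed without VA-free mouse 1 (1.24), 2 (1.18) or 3 (1.26) and without control mouse 1 (0.82).

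**Figure D4:**
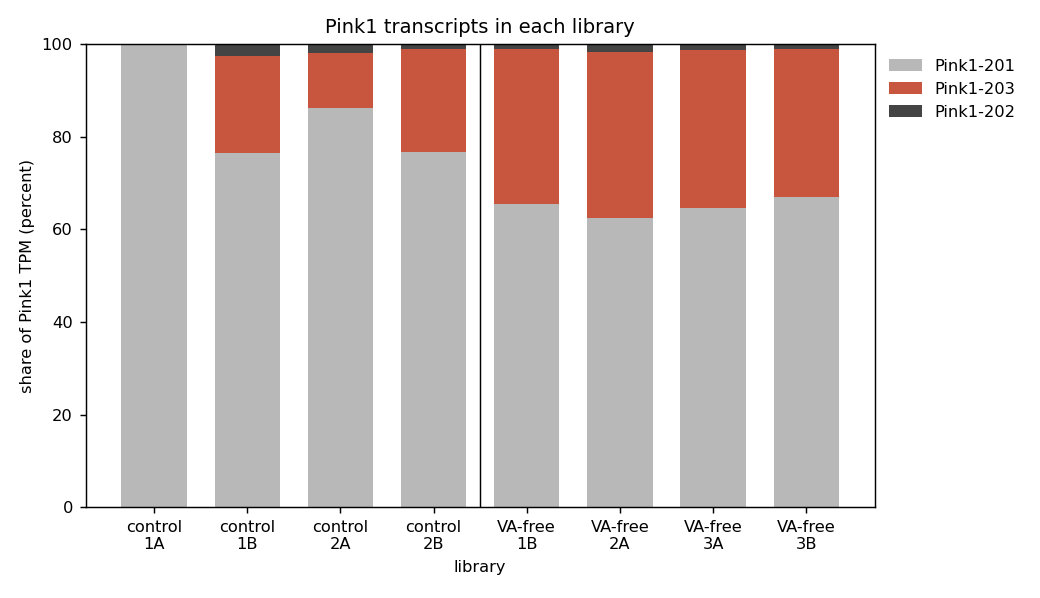
Share of the Pink1 TPM (y axis, percent) on each of its 3 transcripts in the 8 libraries (x axis, control left, VA-free right). Pink1-203 takes 31.9% to 35.8% in VA-free and 0.244% to 22.2% in control libraries.

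Of the other transcripts that held at least 10% of a gene's TPM on average on either diet, none passed. Opa1-207, Opa1-201 and Opa1-206 shared the Opa1 TPM on both diets (39.5%, 28.0% and 27.3% on the VA-free and 36.0%, 32.3% and 25.6% on the control diet). For Mfn2, Mfn2-204 held 75.4% and 76.2% and Mfn2-201 16.0% and 16.2%, and for Mfn1, Mfn1-202 held 44.4% and 47.1%, Mfn1-201 21.7% and 19.8% and Mfn1-206 10.8% and 3.99%. Fis1-201 held 80.1% on the VA-free and 88.0% on the control diet and Fis1-202 13.1% and 8.20%. Dnm1l-201 held 51.7% and 49.4% and Dnm1l-207 24.0% and 30.0%. The Mff TPM was spread over Mff-208 (25.0% and 21.4%), Mff-204 (23.4% and 25.0%), Mff-209 (18.0% and 19.7%) and Mff-210 (6.27% and 10.4%). For Fundc1 these were Fundc1-201 (45.8% and 37.4%), Fundc1-205 (43.8% and 45.0%) and Fundc1-204 (9.90% and 16.2%). Bnip3-201 held 79.9% and 91.5% and Bnip3-203, of 719 bases, 16.2% and 8.13%. Bnip3-203 did pass when transcripts needed 1 CPM in each mouse (log2 change 1.31, adjusted p = 0.0260, edgeR).

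On the TPM scale, which allows levels of different genes to be set side by side, Bnip3l led on both diets (median 279 TPM over VA-free and 441 TPM over control libraries) when all its transcripts were added. Of this TPM 93.4% to 95.7% lay on transcripts annotated as non-coding, and its 2 protein-coding transcripts summed to 14.5 to 18.7 TPM in VA-free and 19.9 to 23.1 TPM in control libraries, below Bnip3 on both diets. On the VA-free diet Pink1 (143 to 184 TPM), Mff (139 to 160 TPM) and Fis1 (136 to 142 TPM) followed, where the range of Mff overlapped that of each of the other two and Pink1 lay above Fis1. Mfn2 (median 53.3 TPM) and Fundc1 (51.9 TPM), then Mfn1 (36.6 TPM), Opa1 (33.8 TPM) and Dnm1l (30.5 TPM), came next, and Bnip3 was last at 23.3 to 25.1 TPM, below the lowest Dnm1l value of 29.1 TPM. The ranges of Mfn2 and Fundc1 overlapped, as did those of Mfn1 and Opa1 and of Opa1 and Dnm1l. On the control diet Fis1 (median 220 TPM) came next, then Mff (168 TPM) and Pink1 (78.2 TPM). Bnip3 followed at 63.4 TPM, ahead of Fundc1 (53.4 TPM), Mfn2 (27.6 TPM), Dnm1l (23.9 TPM), Mfn1 (20.9 TPM) and Opa1 (15.6 TPM). Ranges overlapped among Pink1, Bnip3 and Fundc1 and between neighbours from Mfn2 to Opa1, although Dnm1l lay above Opa1. The wide control range of Pink1 (23.3 to 100 TPM) also overlapped those of Mfn2, Dnm1l and Mfn1. The ratio of Pink1 to Bnip3 TPM was 6.02 to 7.79 in VA-free and 0.301 to 2.37 in control libraries, given as a description.

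A further 56 genes that act on the same machinery were tested in 5 lists. Of these, 14 were higher, 11 lower and 31 did not pass, against 18.9% higher and 22.5% lower of all genes, and their median log2 fold change was 0.06. With log2(TPM + 1) the split was 31 higher and 3 lower, where 5794 of all 17997 genes were higher and 2631 lower. With the length trend removed the split was 14 and 8, where 2153 of all genes were higher and 3173 lower. Of these pathway genes, 11 and 5 were called in the same direction with and without the trend.

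Of 13 fusion regulators, which process Opa1 or act on the mitofusins and on membrane lipids, 3 were higher and 2 lower. Miga2, an outer membrane protein that promotes fusion through phospholipase D6, was at 25.6 to 36.9 CPM in VA-free and 4.08 to 16.9 CPM in control libraries (log2 fold change 1.32 ± 0.18, SE, adjusted p = 0.00163, edgeR), and it passed with the length trend removed (0.97). Afg3l2, a subunit of the inner membrane m-AAA protease, was at 107 to 115 against 62.8 to 68.8 CPM (0.74, adjusted p = 0.00192, edgeR) and passed there as well (0.36). The Opa1 proteases Oma1 and Yme1l1 were at -0.34 and -0.15 and did not pass, although Yme1l1 was called lower with the length trend removed (-0.68, adjusted p = 0.00477, edgeR). Phb (-0.45, adjusted p = 0.0184, edgeR) and Stoml2 (-0.43, adjusted p = 0.0150, edgeR), inner membrane scaffolds that stabilize Opa1, were lower. Neither passed once the length trend was removed and Stoml2 was at 0.30, and Phb also did not pass without control 2A (-0.27). Stoml2 was the most abundant of the list per length (mean of 184 TPM).

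Of 12 fission partners, 2 were higher and none lower. Spire1, an actin nucleator at the sites where mitochondria divide, was at 41.8 to 48.9 CPM in VA-free and 17.7 to 25.2 CPM in control libraries (log2 fold change 1.17 ± 0.13, SE, adjusted p = 0.000839, edgeR). Mief1, a Drp1 receptor of the outer membrane, was at 24.1 to 32.4 against 6.95 to 18.4 CPM (1.05 ± 0.18, SE, adjusted p = 0.00378, edgeR). Both passed with the length trend removed (0.69 and 0.70) and without control 2A (1.03 and 0.77). Sh3glb1, the most abundant of the list at a mean of 303 TPM, was at 258 to 336 and 263 to 333 CPM and did not pass (0.04, adjusted p = 0.873, edgeR).

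Of 13 further genes of the Pink1 pathway, 2 were higher and 4 lower. Vdac1, a pore of the outer membrane (50.3 to 61.4 against 22.2 to 31.6 CPM, log2 fold change 0.96, adjusted p = 0.00418, edgeR), and Rhot2, a Miro GTPase that ties mitochondria to motors (7.80 to 9.68 against 2.10 to 7.48 CPM, 0.95, adjusted p = 0.0198, edgeR), were higher. Tomm7, a small subunit of the import channel that holds Pink1 at the outer membrane, was at 20.1 to 24.2 against 38.5 to 54.2 CPM (-1.19 ± 0.13, SE, adjusted p = 0.000794, edgeR). Park7 (DJ-1), a protein that guards against oxidative stress and the most abundant of the list (434 TPM), was at 138 to 160 against 239 to 523 CPM (-1.13 ± 0.13, SE, adjusted p = 0.000782, edgeR). All 4 passed with the length trend removed, at 1.13, 1.01, -0.67 and -0.44. Parl, the protease that cleaves Pink1, was lower too (-0.96, adjusted p = 0.00598, edgeR), as was Vdac2 (-0.81, adjusted p = 0.00439, edgeR), but neither passed with the length trend removed (-0.55, adjusted p = 0.0565, and -0.41, adjusted p = 0.0630, edgeR). Oma1, Yme1l1, Parl and Vdac2 fall outside the rule for naming and were chosen after their values were seen.

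Of 13 further mitophagy receptors and adaptors, 6 were higher and 4 lower. Ambra1, an autophagy activator with a site that binds LC3, was at 52.7 to 60.0 CPM in VA-free and 4.14 to 31.3 CPM in control libraries (log2 fold change 1.60 ± 0.20, SE, adjusted p = 0.00120, edgeR). Bcl2l13, an outer membrane receptor related to yeast Atg32 in function, was at 104 to 116 against 28.2 to 54.0 CPM (1.34 ± 0.12, SE, adjusted p = 0.000422, edgeR). Sqstm1 (p62), the most abundant of the list at 1377 TPM, was at 1597 to 2252 against 985 to 1391 CPM (0.65, adjusted p = 0.0174, edgeR). These 3 also passed with the length trend removed (1.03, 0.72 and 0.66). Optn, the adaptor optineurin, was lower (5.33 to 6.68 against 7.70 to 12.0 CPM, -0.71, adjusted p = 0.0315, edgeR), and so was Nipsnap1, a matrix protein exposed on damaged mitochondria (7.94 to 9.08 against 12.5 to 17.0 CPM, -0.73, adjusted p = 0.0178, edgeR), which did not pass with the length trend removed (-0.51, adjusted p = 0.0814, edgeR).

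Of 5 transcription factors known to act on Bnip3 or Bnip3l, 1 was higher and 1 lower. Hif1a, the most abundant, was at 106 to 140 CPM in VA-free and 101 to 153 CPM in control libraries and did not pass (log2 fold change -0.03, adjusted p = 0.925, edgeR), although it did, at -0.57 (adjusted p = 0.0489, edgeR), with the length trend removed. Epas1 (HIF-2 alpha), which is also abundant in endothelium, was at 18.6 to 29.2 against 81.7 to 234 CPM (-2.77 ± 0.31, SE, adjusted p = 0.000801, edgeR), and the endothelial markers were lower on the same diet as given above. The part of endothelial cells in the Epas1 difference was not tested. Foxo1 was higher (133 to 167 against 51.7 to 139 CPM, 0.50, adjusted p = 0.0263, edgeR), with ranges that overlapped, and did not pass without control 2A (0.22) or with the length trend removed (-0.11).

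**Figure D5:**
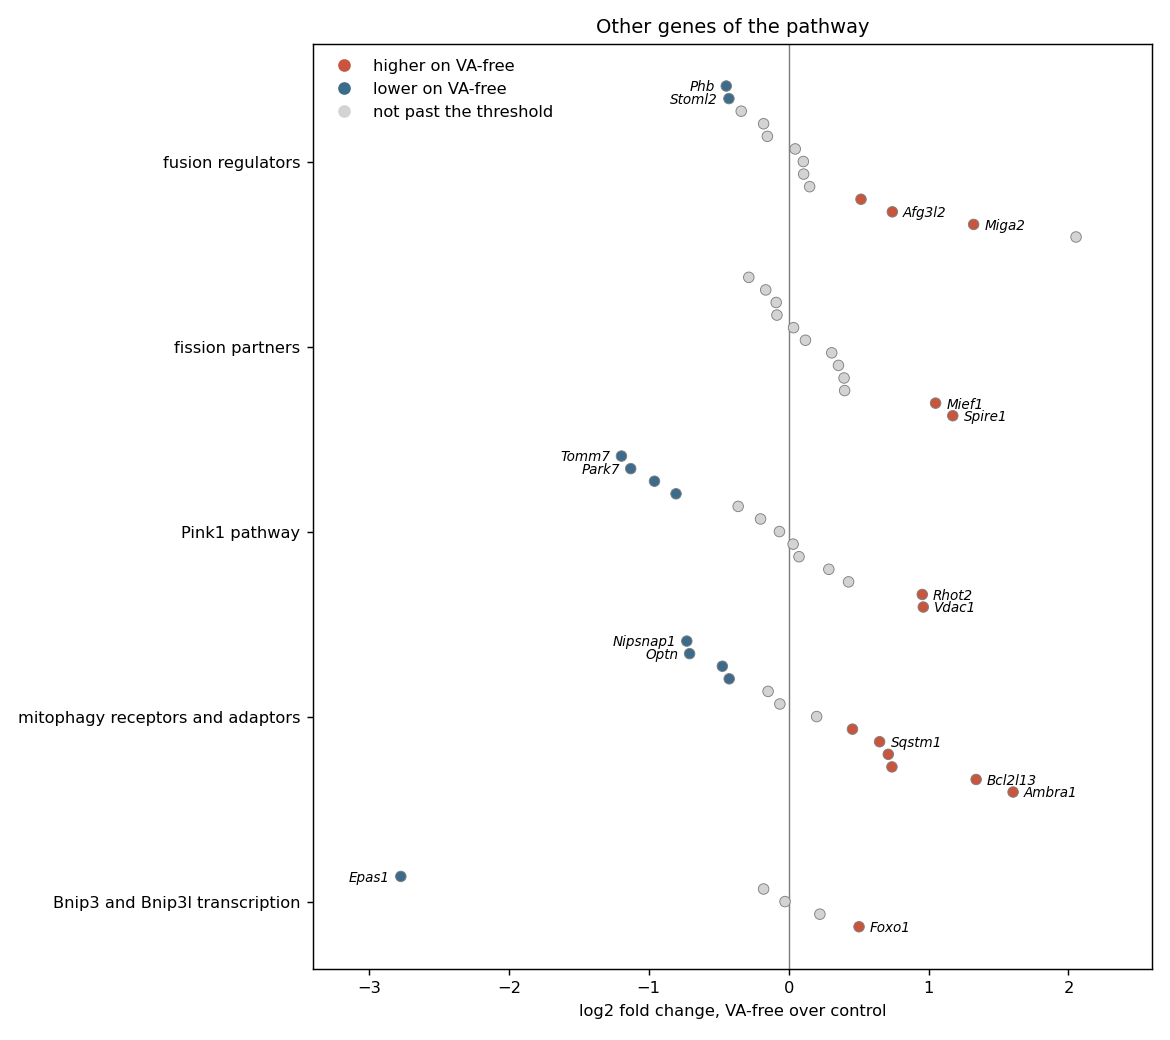
Log2 fold change (x axis, VA-free over control) of 56 further genes in 5 lists (y axis), 1 point a gene, ordered by value within each list. Red points passed as higher (14), blue as lower (11) and grey did not pass (31), and labelled genes were named by the rule for large changes or high levels.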

How the data were processed

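RNA of sorted MuSCs was measured in 8 libraries of 5 mice. The authors made full-length cDNA with SMART-Seq v4 and Nextera XT libraries, which carry no strand information, and assigned reads to GRCm38 transcripts of Ensembl 96 with kallisto 0.46.2. They deposited estimated counts per transcript, without normalization, and TPM, which the authors' tool scales by effective length to one total per library. The estimated counts summed to 44831232 to 88650428 per library, so counting error was small for these genes.

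Estimated counts were added per gene and over the libraries of a mouse and rounded. Between 0.647% and 0.756% of a library's counts had no gene and stayed out. The comparison of diets used edgeR 4.0.16 under R 4.3.3 (filterByExpr, TMM, quasi-likelihood test, Benjamini-Hochberg adjustment over all genes, threshold 0.05), and transcript shares with its diffSpliceDGE over all transcripts. A standard error is the log2 fold change divided by the square root of F. The paper's methods used DESeq2 after tximport. Here DESeq2 (1.42.0) was an alternative, run without tximport on the rounded sums per mouse of the genes tested, so it does not repeat the paper's procedure. Further alternatives were limma 3.58.1 with voom, other scalings and filters, separate or single libraries, and a replicate block. Corrections for length, log2 TPM after adding 1 or 0.1, and omission of single mice or libraries were also used. The edgeR, DESeq2, voom and transcript-share fits, the replicate block and the removal of the length trend were run on simulated data. The correction by effective length was run there with equal lengths, and the log2 fit on levels not scaled by length. Total counts without TMM, other filters, separate or single libraries, protein-coding transcripts alone and omissions were not run on simulated data. The members and lists were chosen with earlier results of these data known. Beside the 10 genes, the text names in each list the 2 largest changes in each direction past the threshold at 5 CPM or more and the most abundant gene per length, and transcripts with at least 10% of a gene's TPM. A result for 1 gene of the lists is not reported here. Counts on protein-coding transcripts alone, and transcript shares without single libraries, were added after the data were seen. Promoters came from RefSeq (GRCm38.p6) and transcript sequence from GENCODE vM21. Nothing in the labels says more of how animals were assigned. The p-values set the diet difference against the spread between these mice, which edgeR estimates with the help of all genes tested.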

Additional observations from a re-analysis of the deposited data

Results flagged for a closer look

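Within the 4 libraries of each diet, the levels of the 10 genes and the share of Pink1-203 were screened for a library far from the others, in 22 groups, of which chance flags about 1 in 20. Both libraries found were control 2A. Dnm1l was at 120.7 CPM there and at 47.4 to 55.6 CPM in the other control libraries, a gap of 0.887 of the group's range. Mfn2 was at 47.07 CPM and at 81.3 to 88.0 CPM in the others, a gap of 0.836 of the range. Control 2B, made from the RNA of the same mouse, was among the others for both genes. Their cause was not tested.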

How the results depend on the processing

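With each mouse or library left out in turn, 1 to 4 of the 10 genes were higher (4 with all) and 3 to 5 lower (5 with all), 6 to 16 pathway genes were higher (14) and 5 to 12 lower (11), and 0 to 1 transcripts changed in share (1). Without control 2B, 1 gene was higher and 3 lower, and 6 pathway genes were higher and 7 lower. Without VA-free mouse 1, 2 or 3 the 10 genes gave 3, 2 and 2 higher and 3, 3 and 4 lower, and the pathway genes 10, 11 and 8 higher and 6, 6 and 5 lower. Without control 1A 2 of the 10 genes were higher. With 1 library per mouse 1 of the 10 genes was higher, and 9 pathway genes were higher and 7 lower. With the length trend removed 0 of the 10 genes were higher and 2 lower (all genes: 2153 higher and 3173 lower, against 3403 and 4056), and Mff reversed to 0.047. With TPM, 3 of the 10 genes were lower, and 31 pathway genes were higher and 3 lower at either pseudocount. Of all genes, 5794 (pseudocount 1) or 5891 (0.1) were higher and 2631 or 2622 lower, and their median moved by 0.19 or 0.36. Dnm1l reversed to 0.17 or 0.18, below that shift. Dnm1l also reversed without control mouse 2 (0.13) and without control 2A (0.08), and ranged from -0.63 to 0.13 with a mouse or library left out. With 8 libraries as separate samples 0 transcripts changed in share, and with at least 1 CPM in each mouse 2 did. Without VA-free mouse 2 the 1 transcript that passed was not Pink1-203 (adjusted p = 0.105 there, edgeR's transcript-level F test). The causes were not tested beyond the construction of each alternative.

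With the replicate number as a block (a replicate block), 1 of the 10 genes was higher and 3 lower, 9 pathway genes were higher and 5 lower, and 0 transcripts changed in share. The deviations of same-numbered mice from their diet means correlated at -0.07 and 0.01 over genes. With 2 control mice these deviations mirror each other, so the values cannot show whether the numbers pair the mice. Bnip3 passed under all 25 alternatives, Opa1, Fis1 and Bnip3l under 24, Mfn2 under 21, Mfn1, Mff, Pink1 and Fundc1 under 15, and Dnm1l under 2. Depth was no limit for these genes, which had at least 926 counts in each library, whereas 2 control mice give 1 estimate of their spread.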
